A study of Mus musculus with 48 samples.

Results

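Dusp1, Dusp4, Dusp5, Dusp6, Spry1, Spry2, Spry4, Spred1, Etv4 and Etv5 are genes that cells induce when the mitogen-activated protein kinase ERK is active, and most of their products hold the pathway back. They were chosen by name as a transcript readout of MAP kinase activity, and all 10 were found among the 24060 gene rows of the count table. ERK is switched on by receptor tyrosine kinases through Ras, Raf and MEK. The dual specificity phosphatases encoded by Dusp genes remove phosphate from ERK and related kinases, Sprouty and Spred proteins restrain signalling between receptor and Raf, and Etv4 and Etv5 are ETS transcription factors of the PEA3 group that act downstream of fibroblast growth factor receptors. In the brain the same genes respond both to growth factors and to neuronal activity, and astrocytes carry several of the receptors that feed the pathway.

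RNA was sequenced from the striatum of 24 mice of a strain labelled C57, in 3 experiments of 16 libraries each. All mice carried an adeno-associated virus that expressed an HA-tagged ribosomal protein, Rpl22, in striatal astrocytes for 3 weeks, and each replicate gave an IP library (RNA pulled down with the tagged astrocyte ribosomes) and an input library made from the whole cleared lysate. The groups were vehicle and MPTP, a toxin for dopamine neurons given as 4 doses of 20 mg/kg and labelled as microinjected into the striatum; wild-type littermates and SAPAP3 knockout mice, which lack a postsynaptic scaffold protein and serve as a model of compulsive grooming; and R6/2 mice, which carry a fragment of mutant human huntingtin, with a control cargo or with hM4Di, an engineered inhibitory G protein-coupled receptor. Each group had 4 replicates. Ages, and whether an agonist of hM4Di was given, are not given in the sources used here, and the treatment text shared by all samples describes other perturbations. The titles name different mice for the IP and the input of MPTP replicate 2, and wild-type replicate 3 may hold 2 mice by its title.

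The IP libraries held 34316801 to 61456591 counted reads and the input libraries 21901847 to 38983930. Of 12 astrocyte markers, 12 were over 2-fold higher in IP than in input in each of the 3 experiments, and of 10 microglial markers 10 were over 2-fold lower. Of 8 interneuron markers 7, 6 and 7 were higher in the MPTP, SAPAP3 and R6/2 experiments, and 0 lower. Of 8 ependymal and choroid plexus markers 6 were higher in each, and 1, 1 and 0 lower. In the SAPAP3 experiment 4 of 8 oligodendrocyte and 5 of 8 oligodendrocyte precursor markers were higher. In the R6/2 experiment 0 of these were higher, and 1 and 5 lower. A gene higher in IP therefore cannot be assigned to astrocytes alone. Chrm4, the mouse relative of the receptor that hM4Di derives from, stood at 753 ± 141 CPM (reads of a gene scaled to library size, SD, n = 4) in hM4Di IP libraries and 48.2 ± 11.7 with the control cargo. Dlgap3, which encodes SAPAP3, stood at 403 ± 51.4 CPM in wild-type input and 176 ± 17.4 in knockout input. Each experiment was its own sequencing project. In bulk RNA, fewer cells of a type and less RNA per cell cannot be told apart.

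The upstream sequences of the members called after hM4Di (below), except Spry4, are shown here as the stretch in which regulatory motifs are usually sought. That of Dusp1 is added, which holds the only cAMP response element found. Entries of RefSeq's table of promoters on GRCm38.p6 were used for 7 of the 10 members. None was used for Dusp4, Spry4 and Etv4. Whether the table holds an entry for Spry4 is not given here. The windows run from 160 to 41 bases before the RefSeq start, 5′ to 3′ on the strand of the gene, with motif matches in capitals.
Dusp1 (chr17:26508513-26508632, minus strand): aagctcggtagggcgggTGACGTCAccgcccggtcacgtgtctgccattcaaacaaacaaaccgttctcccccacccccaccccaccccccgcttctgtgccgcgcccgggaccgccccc
Dusp5 (chr19:53528985-53529104, plus strand): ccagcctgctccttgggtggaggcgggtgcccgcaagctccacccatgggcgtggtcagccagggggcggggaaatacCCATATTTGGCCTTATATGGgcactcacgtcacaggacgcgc
Spry1 (chr3:37639787-37639906, plus strand): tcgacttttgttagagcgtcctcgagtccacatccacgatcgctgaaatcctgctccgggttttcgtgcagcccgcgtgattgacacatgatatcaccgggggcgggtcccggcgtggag
Spred1 (chr2:117120911-117121030, plus strand): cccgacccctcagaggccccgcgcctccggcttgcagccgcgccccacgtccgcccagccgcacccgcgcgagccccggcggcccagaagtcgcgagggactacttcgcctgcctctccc

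The capitals in Dusp1 are a full cAMP response element, TGACGTCA, which lay 143 to 136 bases before the start and is held by 1.55% of the 32851 promoters in the table. The capitals in Dusp5 are a pair of adjoining CArG boxes, the element read by serum response factor, at 82 to 73 and 72 to 63 bases before the start; 1.47% of promoters hold a CArG box. That motif was searched after the sequences had been read. Motifs were sought on both strands in the 250 bases before each start, in 8 windows of the 7 genes. The ETS site CCGGAAGT (2.88% of promoters), the AP-1 site TGANTCA (6.75%) and the TATA box TATAAA (12.4%) were not in these windows. A match is a description of letters, not of binding. All 120 bases of the Dusp5 window and all 120 of the Spry1 window lie in annotated exons. Both windows end before the annotated starts of Dusp5 and Spry1, so these exons belong to other genes. Of the Dusp1 window 7 bases lie in an annotated exon, inside the annotated span of Dusp1. The strand of those exons, and whether their genes reach into Dusp5 and Spry1, are not given here. Whether reads were counted by strand is not given in the sources used here. Whether reads of such a neighbour were counted for the member therefore cannot be told here. In the GENCODE annotation of GRCm38, Dusp5 spans chromosome 19 from 53529109 to 53542431, Dusp1 chromosome 17 from 26505590 to 26562128, Spry1 chromosome 3 from 37639947 to 37644598 and Spred1 chromosome 2 from 117121374 to 117182279.

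The members fell into an abundant and a scarce set. On the deposited FPKM scale, which is per gene length, Spred1, an adaptor that holds back Ras and Raf, was the most abundant in both fractions, with a median of 53.2 FPKM over the 24 IP libraries (44.4 to 70.1) and 58.6 over the 24 input libraries (49.9 to 80.4). Spry2, a Sprouty that intercepts signalling between receptor adaptors and Ras, followed at 31.3 FPKM in IP (26.1 to 38.8) and 29.2 in input (21.0 to 45.6). Etv5 stood at 17.5 FPKM in IP and 18.1 in input, and Dusp6, the cytoplasmic phosphatase specific to ERK, at 16.2 and 21.7. In IP the ranges of Spred1, Spry2 and Etv5 did not overlap each other, while those of Etv5 and Dusp6 did.

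The other 6 members had medians from 1.80 to 3.59 FPKM in IP and from 1.71 to 5.004 in input. Their ranges over the 24 libraries overlapped in IP; in input Spry1 (2.99 to 4.67) and Dusp5 (2.50 to 6.78) lay above Etv4 (1.36 to 2.35), and Spry1 just above Spry4 (1.23 to 2.99). They were Dusp1, a nuclear phosphatase of ERK, p38 and JNK (3.59 in IP, 5.004 in input); Spry4 (3.48 and 1.94) and Spry1 (2.44 and 3.98), the other Sprouty genes; Etv4 (3.41 and 1.93); Dusp5, a nuclear phosphatase specific to ERK (2.04 and 3.92); and Dusp4, a nuclear phosphatase of ERK and JNK (1.80 and 1.71). Spred1 was above 95.4% of all genes in IP and Dusp4 above 51.4%. The order differed between fractions for these genes: Spry4 and Etv4 stood above Spry1 and Dusp5 in IP and below them in input.

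**Figure D1:**
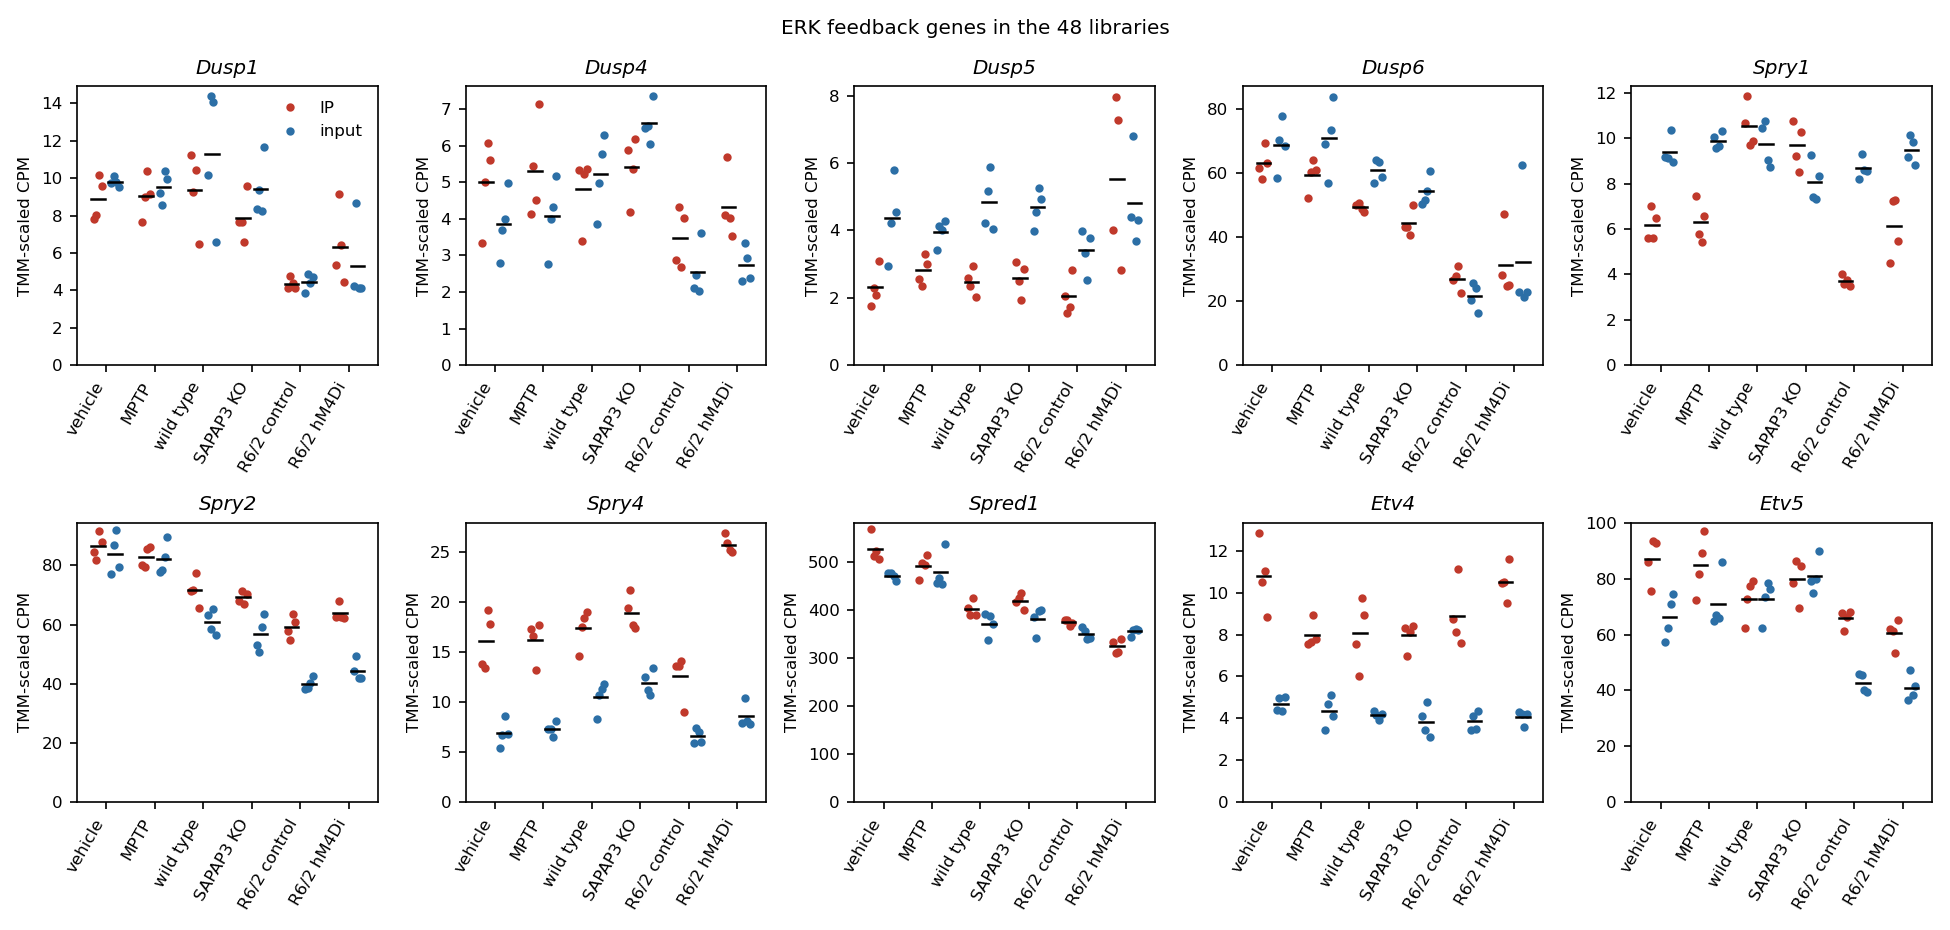
TMM-scaled CPM of the 10 genes in each of the 48 libraries, by group; red points are IP libraries, blue points input libraries, and black bars the mean of 4. Spry4 in hM4Di IP libraries (25.0 to 26.9 CPM) lies above every other library, and Dusp6 and Dusp1 are lower in R6/2 libraries than in most others.

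Between IP and input, Etv4 and Spry4 were the members found over 2-fold more in IP, Spry4 in the MPTP and R6/2 experiments only. With both conditions of an experiment in the fit, and the mouse left out of it, none was over 2-fold lower there. A gene was called when its adjusted p (edgeR's quasi-likelihood F test, Benjamini-Hochberg over all genes) was under 0.05 and its fold over 2. In the MPTP experiment 2 of 10 members were called higher, where 12.5% of all genes were called higher and 14% lower. In the SAPAP3 experiment 1 of 10 was called higher (11.9% and 13% of all genes), and in the R6/2 experiment 2 of 10 (11.3% and 12.3%). The median log2 fold change of the members was 0.05, 0.10 and 0.37, and that of all genes -0.02, -0.000565 and -0.02.

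Etv4 (chromosome 11, 101769742 to 101785371) had 8.83 to 12.9 CPM in vehicle IP and 4.35 to 5.03 in vehicle input, 6.004 to 9.75 in wild-type IP and 3.90 to 4.34 in wild-type input, and 7.60 to 11.1 in R6/2 control IP and 3.45 to 4.33 in its input. IP lay above input in every library of all 3 experiments. Its log2 fold change came to 1.03 ± 0.0943 (SE, edgeR, adjusted p = 7.69e-09) with MPTP and vehicle mice, 1.04 ± 0.103 (adjusted p = 5.28e-08) in the SAPAP3 experiment and 1.32 ± 0.0839 (adjusted p = 1.64e-10) in the R6/2 experiment. In the first of these the fold came to just under 2 without vehicle replicate 1 or without vehicle replicate 3, and in the SAPAP3 experiment without wild-type replicate 3 or knockout replicate 4. The lowest log2 values over the alternatives were 0.95 and 0.94, with an adjusted p of at most 0.000535.

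Spry4 had 13.4 to 19.2 CPM in vehicle IP against 5.43 to 8.61 in vehicle input, and 14.6 to 19.0 in wild-type IP against 8.28 to 11.8 in wild-type input. IP exceeded input by 1.17 ± 0.0992 on the log2 scale in the MPTP experiment (edgeR, adjusted p = 2.53e-09), 0.73 ± 0.0805 in the SAPAP3 experiment (adjusted p = 1.99e-07, under 2-fold) and 1.30 ± 0.121 in the R6/2 experiment (adjusted p = 2.68e-08). IP and input did not overlap in the first 2 experiments. In the R6/2 experiment they did, because control IP replicate 4 (9.04 CPM) lay below hM4Di input replicate 2 (10.4 CPM); in the control mice alone the log2 value was 0.96, under 2-fold.

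The other inhibitors showed no common direction. Spry1 was lower in IP in the MPTP experiment (log2 fold change -0.64 ± 0.0705) and in the R6/2 experiment (-0.90 ± 0.117), and 0.23 ± 0.0765 in the SAPAP3 experiment, with edgeR adjusted p of 1.03e-07, 2.05e-06 and 0.0122. In the R6/2 control mice alone it was over 2-fold lower, at -1.20 ± 0.0846. Spry2 was higher in IP by 0.30 ± 0.049 and 0.57 ± 0.0424 in the SAPAP3 and R6/2 experiments, and stood at 0.01 ± 0.0419 in the MPTP experiment. Spred1 was nearly even, at 0.09, 0.16 and 0.01. Whether these values differ between experiments was not tested, since each experiment was sequenced apart.

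Among the phosphatases, Dusp5 leaned to input in the MPTP and SAPAP3 experiments (log2 fold change -0.72 ± 0.142 and -0.87 ± 0.115, edgeR adjusted p = 0.000131 and 1.83e-06) and stood at -0.21 ± 0.242 in the R6/2 experiment. Dusp6 was at -0.20, -0.26 and 0.16, Dusp1 at -0.12, -0.23 and 0.14, and Dusp4 at 0.36, -0.17 and 0.58. Etv5 was at 0.31, 0.03 and 0.62. None of these passed 2-fold.

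**Figure D2:**
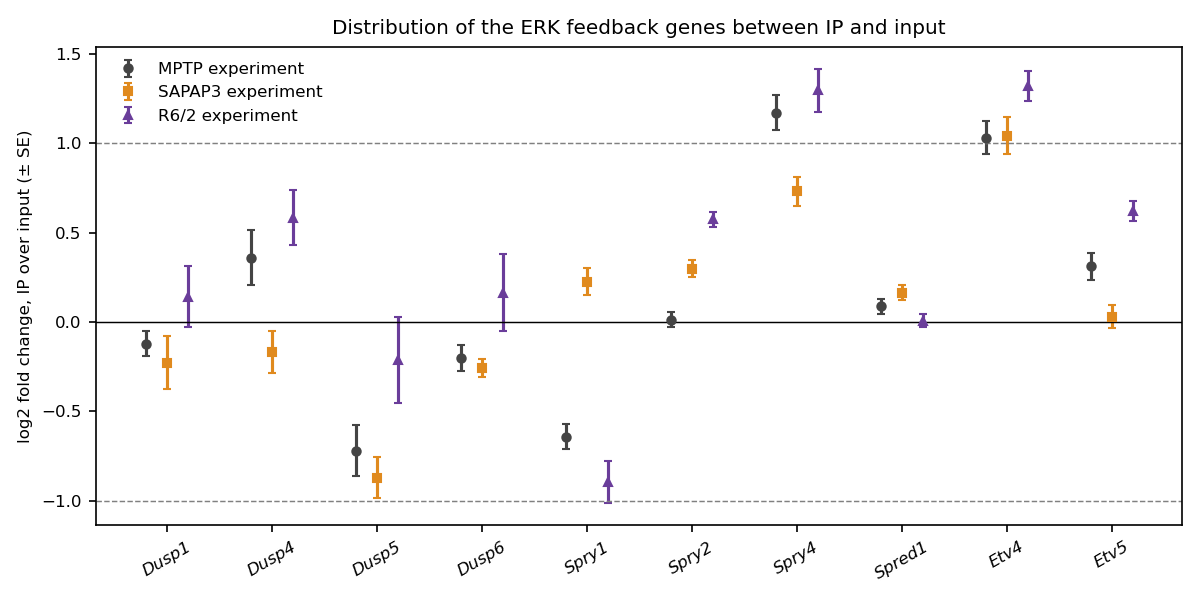
Log2 fold change of IP over input (points, with SE bars) for the 10 genes in the 3 experiments; dashed lines mark 2-fold. Etv4 lies above the upper line in all 3 experiments and Spry4 in the MPTP and R6/2 experiments; Spry1 changes side between experiments.

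In a wider list of 108 pathway genes, the receptors were the group found most in IP. Of 15 receptors 9, 9 and 8 were called higher in IP in the MPTP, SAPAP3 and R6/2 experiments, 6 of them in all 3, and 0, 0 and 1 lower; that 1, Pdgfra, a receptor of oligodendrocyte precursors, is named after its value was seen (-1.92 ± 0.125). Egfr, the epidermal growth factor receptor, had log2 fold changes of 2.54, 2.16 and 2.21, and Fgfr3, a fibroblast growth factor receptor, 2.37, 2.27 and 2.44. Of 19 kinases and scaffolds of the Raf, MEK and ERK cascade, 0 were called in any experiment. In edgeR 17, 14 and 11 had an unadjusted p under 0.05, as had 84.5%, 81.1% and 81.3% of all genes. The median log2 fold change of the 19 was -0.29, -0.25 and -0.21. The ligand Fgf2 was higher in IP (1.95, 1.78 and 1.63) and the ligand Pdgfb lower (-1.90, -1.69 and -2.00). Of 14 other feedback genes, Lrig1, which acts on receptors of the EGF family, was higher in all 3 experiments (1.54, 1.89 and 1.62) and Dusp2, a nuclear phosphatase, lower (-1.70, -1.62 and -1.14). Of 23 adaptors and GTPase regulators, Rasa3, which switches Ras off, was higher in all 3 (1.27, 1.35 and 1.13). The last list, called early genes here, held 16 early target genes and the ERK substrates Elk1, Elk3 and Elk4. Of these 19, Fosl1, an AP-1 gene at 0 to 0.156 CPM in R6/2 control input, was higher (2.75, 2.37 and 2.74; IP and input overlapped in the SAPAP3 and R6/2 experiments), and Elk1 was lower (-1.43, -1.21 and -1.33).

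The hM4Di receptor in R6/2 astrocytes was the perturbation in which members changed. In IP libraries Spry4, Spry1 and Dusp5 rose and Spred1 fell, 4 of 10 members at an adjusted p under 0.05 (edgeR), where 14.7% of all 15159 genes tested were called. The median log2 fold change of the members was 0.30 and that of all genes 0.01. Of the 10 members, 8 had a positive value, against 51.2% of all genes. Whether the effects differ from those of the other perturbations was not tested.

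Spry4 had 13.6, 13.7, 14.1 and 9.04 CPM in the 4 control IP libraries and 26.9, 25.9, 25.2 and 25.0 CPM in the 4 hM4Di IP libraries. The hM4Di libraries were nearly alike and all above the controls, of which replicate 4 was the lowest. The log2 fold change was 1.05 ± 0.124 (SE, edgeR, adjusted p = 0.00312), a 2.07-fold rise. It was called under each of the 16 alternative settings, with log2 values from 0.92 to 1.10.

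Spry1 had 4.00, 3.57, 3.76 and 3.51 CPM in control IP libraries and 4.48, 7.25, 7.26 and 5.47 CPM in hM4Di IP libraries. The groups did not overlap, though hM4Di replicate 1 lay close to the controls. The log2 fold change was 0.74 ± 0.166 (edgeR, adjusted p = 0.0219). The call was lost without control replicate 1, 3 or 4 or without hM4Di replicate 2, and the adjusted p reached 0.113 with hM4Di replicate 2 and control replicate 4 both left out.

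Dusp5 had 2.05, 1.54, 1.74 and 2.84 CPM in control IP libraries and 4.02, 7.97, 7.28 and 2.83 CPM in hM4Di IP libraries. It was high in hM4Di replicates 2 and 3, and hM4Di replicate 4 lay inside the control range. The log2 fold change was 1.46 ± 0.349 (edgeR, adjusted p = 0.0269). The call was lost with limma-voom, with the replicate number as a block, and without control replicate 1, 2 or 3 or hM4Di replicate 2 or 3, with an adjusted p of up to 0.0833.

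Spred1 had 379, 379, 367 and 372 CPM in control IP libraries and 333, 310, 312 and 339 CPM in hM4Di IP libraries. The groups did not overlap, and the fall was small beside the rises of the other 3. The log2 fold change was -0.19 ± 0.0384 (edgeR, adjusted p = 0.0158). It was called in 15 of the 16 alternatives, and not with hM4Di replicate 2 and control replicate 4 both left out (adjusted p = 0.071). In 3 of the 10 members, Spry4, Spry1 and Spred1, the 2 groups of IP libraries did not overlap, as in 23% of all genes.

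The other 6 members were not called in IP. Dusp1 had 4.11, 4.79, 4.42 and 4.11 CPM in control IP libraries and 5.35, 9.15, 6.41 and 4.44 in hM4Di IP libraries, with replicate 2 the highest and replicate 4 within the controls (log2 fold change 0.56 ± 0.208, edgeR adjusted p = 0.0986; called by DESeq2 at 0.048 and, without hM4Di replicate 4, by edgeR at 0.0483). Dusp6 had 26.7, 27.8, 30.8 and 22.7 CPM in controls and 28.1, 47.2, 24.9 and 25.1 with hM4Di, so that its log2 value of 0.24 ± 0.205 came from replicate 2. Dusp4 was at 0.34 ± 0.206, Etv4 at 0.26 ± 0.117 (called without control replicate 3, adjusted p = 0.0417), Spry2 at 0.13 ± 0.0557 and Etv5 at -0.10 ± 0.0623. Their groups all overlapped.

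In input libraries of the same mice 0 of 10 members were called by edgeR (0.0198% of all genes were), DESeq2 or limma-voom. At an unadjusted p under 0.05 in edgeR there were 3, against 7.67% of all genes. Spry4 had 5.94, 7.44, 6.96 and 6.01 CPM in control input and 7.93, 10.4, 8.11 and 7.81 with hM4Di, a log2 difference of 0.38 ± 0.121 (edgeR, adjusted p = 0.504), and it was the 1 member whose input groups did not overlap (4.58% of all genes). Dusp6 reached 62.4 CPM in hM4Di input replicate 2 and 21.3 to 23.0 in the other 3, against 16.3 to 25.5 in controls. Spred1, at 344 to 360 CPM with hM4Di and 339 to 364 in controls, did not follow its fall in IP (0.03 ± 0.0353).

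An interaction term tested whether hM4Di acted alike in IP and input. Without the mouse in the model, it passed for Spred1 alone among the 10, at -0.23 ± 0.0496 (edgeR, adjusted p = 0.0243), where 3.1% of all genes passed. It was 0.66 ± 0.18 for Spry4 (adjusted p = 0.0582), 0.60 ± 0.186 for Spry1 (0.0922) and 0.94 ± 0.434 for Dusp5 (0.267). IP and input of a replicate came from 1 mouse, and with the mouse as a replicate block 4 of 10 members passed in edgeR, as did 17.4% of all genes: Spry4 at 0.67 ± 0.125 (adjusted p = 0.00202), Spred1 at -0.23 ± 0.0443 (0.00245), Spry1 at 0.58 ± 0.143 (0.0119) and Dusp5 at 0.90 ± 0.285 (0.0421). Without the block the Spred1 call was lost when control replicate 1, 3 or 4 or hM4Di replicate 2, 3 or 4 was left out, while Spry4 passed without control replicate 4 (0.57 ± 0.138, adjusted p = 0.0484) and Spry1 without hM4Di replicate 1 (0.71 ± 0.154, 0.035).

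**Figure D3:**
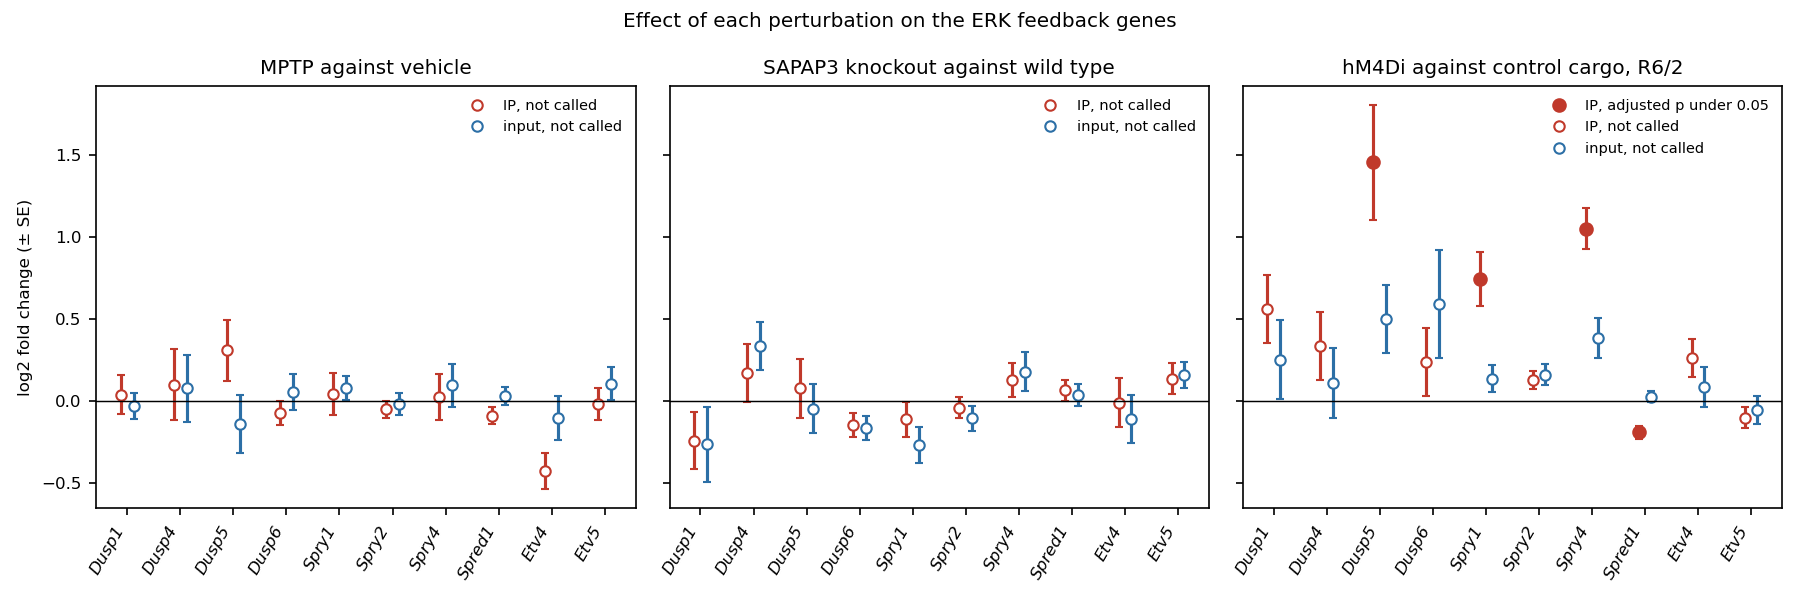
Log2 fold change (points, with SE bars) of the 10 genes under each perturbation in IP (red) and input (blue); filled points have an adjusted p under 0.05. Filled points appear in the hM4Di panel alone, for Dusp5 (1.46), Spry1 (0.74), Spry4 (1.05) and Spred1 (-0.19).

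hM4Di replicate 2 stood apart from the other hM4Di mice in several members and in early genes of the pathway. It was the highest of the 8 R6/2 input libraries for 7 of 10 members and for 10 of 18 early genes tested, against 11.2% of all genes, and the highest of the 8 IP libraries for 5 of 10 members and 11 of 19 early genes, against 10.4% of all genes. Among early genes, hM4Di replicate 3 was the highest for 5 of 18 in input and 6 of 19 in IP, against 13.3% and 15.7% of all genes. It was the highest for 0 of 10 members in input and 1 of 10 in IP. Arc, an early gene of active neurons, had 237 CPM in the input of hM4Di replicate 2 and 41.2 to 55.2 in the other hM4Di inputs, and Egr2 8.30 against 0.56 to 1.27. Control replicate 4 was also high in some early genes: Egr3 had 143 CPM in its input, 40.6 to 50.4 in the other control inputs and 44.4 to 81.2 in the hM4Di inputs, while Fosb was high in both mice (44.0 CPM in control input replicate 4 and 55.6 in hM4Di input replicate 2). With both mice left out, Spry4 was the 1 member called in IP, at 0.92 ± 0.0555 (edgeR, adjusted p = 0.00223), and the 1 called for the interaction, at 0.68 ± 0.111 (adjusted p = 0.0162).

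**Figure D4:**
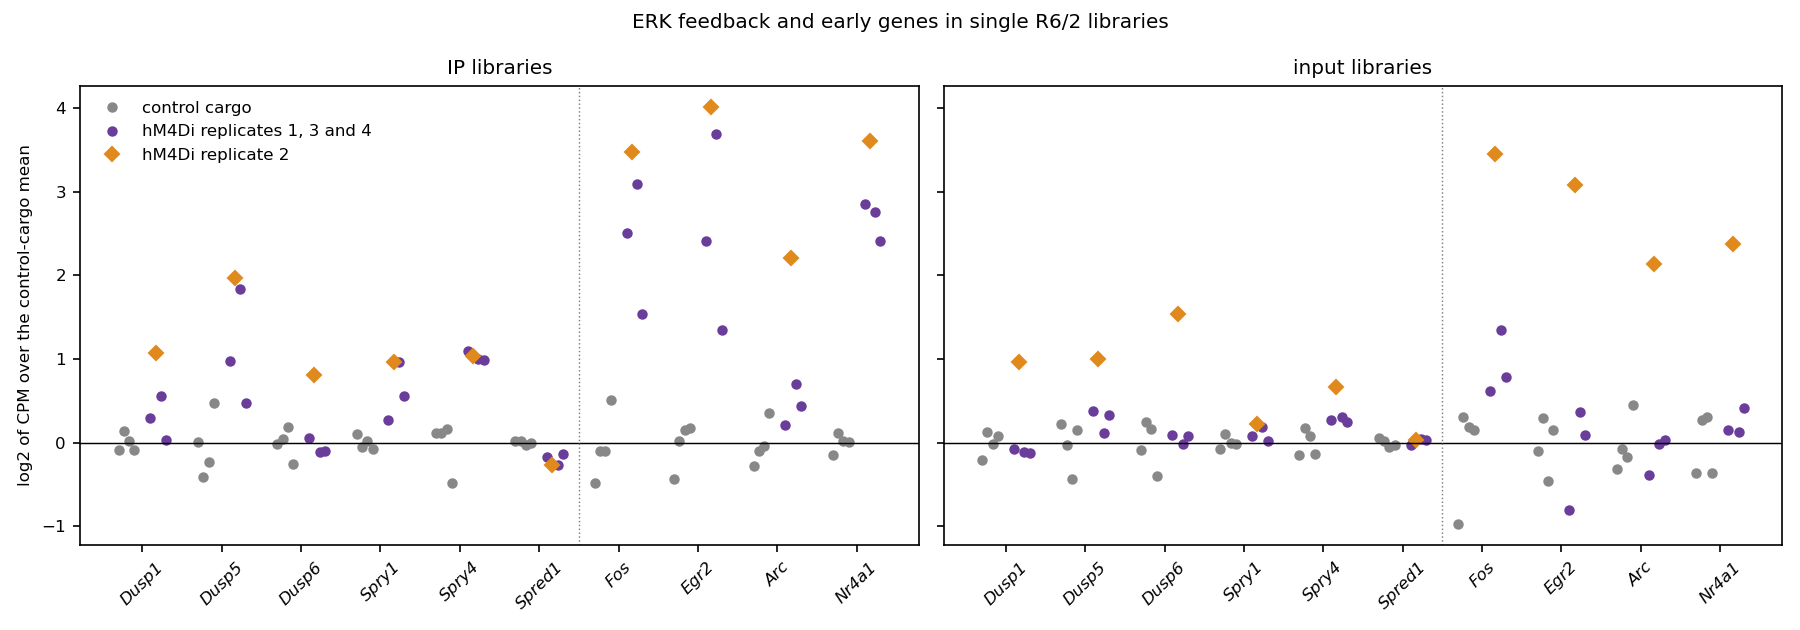
Log2 of CPM over the mean of the control-cargo libraries for 6 feedback genes and 4 early genes, in single R6/2 IP and input libraries; diamonds mark hM4Di replicate 2. The diamond is the highest hM4Di point for Dusp6 (47.2 CPM in IP, 62.4 in input) and for Arc, and lies among the others for Spry4 in IP.

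Other genes of the pathway moved in the same IP libraries. Of the 106 tested genes of the wider list, 24 rose and 6 fell with hM4Di, where 14.7% of all genes were called. The median log2 fold change of the wider list was 0.05. Of the 19 early genes 9 rose and 0 fell (median 0.995). Of 19 cascade kinases and scaffolds 0 were called by edgeR, with 6 at an unadjusted p under 0.05, against 31.4% of all genes. Nr4a1, an early nuclear receptor gene, rose by 3.00 ± 0.243 (edgeR, adjusted p = 0.000859), from 8.28 to 9.97 CPM in controls to 48.9 to 112 with hM4Di. Srf, which encodes serum response factor, rose by 0.99 ± 0.131 (adjusted p = 0.00409), Fgfr2 by 0.71 ± 0.0917 (0.00404) and Errfi1, an inhibitor of the EGF receptor, by 0.44 ± 0.0585 (0.00439). For the interaction 6 of the wider list passed upward and 2 downward, where 3.1% of all genes passed. Among them were Dusp10, a phosphatase that acts mainly on p38 and JNK (0.85 ± 0.145), Fgfr2 (0.56 ± 0.111), Pdgfrb (-0.46 ± 0.0813) and Rapgef2 (-0.26 ± 0.0542).

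Markers of other cells moved with these IP changes. Of 8 oligodendrocyte markers 8 rose in hM4Di IP libraries (median log2 fold change 0.84), their summed level going from 2751 to 3871 CPM in controls to 4971 to 7051. Of 11 medium spiny neuron markers 7 fell (median -0.51), from 1816 to 2781 CPM to 1513 to 1590. Of 12 astrocyte markers 1 rose and 3 fell, the sum going from 25670 to 29270 CPM to 20670 to 22550. Of 10 microglial markers 0 were called by edgeR and 0 had an unadjusted p under 0.05, against 14.7% and 31.4% of all genes. In input 0 of the oligodendrocyte, medium spiny neuron, astrocyte and microglial markers were called by edgeR, where 0.0198% of all genes were. At an unadjusted p under 0.05 there were 0, 0, 7 and 7, against 7.67% of all genes. Of the 10 microglial markers 9 had a positive value in input (median log2 fold change 0.28). The part of these markers in the changes of the members was not tested.

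MPTP left the members within the spread between mice. By edgeR 0 of 10 were called in IP, in input and for the interaction, as were 0%, 0% and 0% of all genes. At an unadjusted p under 0.05 there were, in the same order, 1, 0 and 0 members, against 11.2%, 8.26% and 7.98% of all genes. DESeq2 called 1, 0 and 0 and limma-voom 0 each. The groups of every member overlapped in both fractions, while 7.02% of all genes in IP and 4.59% in input did not overlap. Etv4 was the member with a low p: 12.9, 10.5, 11.1 and 8.83 CPM in vehicle IP and 7.54, 7.64, 8.92 and 7.78 in MPTP IP, where MPTP replicate 3 lay above vehicle replicate 4. Its log2 fold change was -0.43 ± 0.112 (edgeR, adjusted p = 0.207; DESeq2, 0.0387), beside -0.10 ± 0.132 in input. The median log2 value of the members was 0.00249 in IP and 0.04 in input. The other values lay between -0.09 (Spred1) and 0.31 (Dusp5) in IP and between -0.14 (Dusp5) and 0.11 (Etv5) in input.

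SAPAP3 knockout likewise gave 0 of 10 called members in IP, input and interaction by edgeR, where 0.0263%, 0.00641% and 0% of all genes were called. At an unadjusted p under 0.05 there were 0, 3 and 0 members, against 2.63%, 5.57% and 1.26% of all genes. DESeq2 and limma-voom called 0 in each. All groups overlapped, as against 1.56% of genes in IP and 3.76% in input that did not. In input Dusp4 had 3.86, 4.97, 5.77 and 6.29 CPM in wild-type and 6.49, 6.54, 6.05 and 7.36 in knockout mice, a log2 difference of 0.33 ± 0.147 (edgeR, adjusted p = 0.735). Spry1 had 10.5, 10.7, 9.05 and 8.72 CPM in wild-type and 9.25, 7.40, 7.32 and 8.35 in knockout input (-0.27 ± 0.111, adjusted p = 0.735). Dusp6 was at -0.16 ± 0.0712 in input and -0.15 ± 0.0728 in IP. Dusp1 varied most within a group, from 6.57 to 14.4 CPM in wild-type input, and was at -0.27 ± 0.229. The median of the members was 0.03 in IP and -0.08 in input.

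In the wider list 0 of 106 tested genes were called by edgeR in either fraction of these 2 experiments. With MPTP 10 had an unadjusted p under 0.05 in IP and 18 in input, against 11.2% and 8.26% of all genes. With SAPAP3 knockout 8 and 10 had, against 2.63% and 5.57%.

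R6/2 control mice were set beside the 8 healthy control mice, vehicle and wild-type, with no test, because disease and sequencing project cannot be told apart. In IP 5 of 10 members lay below all 8 healthy libraries, against 14.4% of all genes, and in input 4 of 10, against 15.8%. Dusp6 had 22.7 to 30.8 CPM in R6/2 control IP and 47.7 to 69.4 in healthy IP (ratio of means 0.481), and 16.3 to 25.5 in R6/2 input and 56.8 to 77.6 in healthy input (0.333). Dusp1 had 4.11 to 4.79 CPM against 6.49 to 11.3 in IP (0.477) and 3.86 to 4.90 against 6.57 to 14.4 in input (0.424). Both phosphatases lay below every healthy library in each fraction.

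Spry1 was below the healthy libraries in IP, at 3.51 to 4.00 against 5.59 to 11.9 CPM (ratio 0.444), and overlapped them in input (0.906). Spry2 was below them in IP (0.751) and input (0.551), Spred1 in IP (0.805) and Etv5 in input (0.615). The other members overlapped, with ratios from 0.708 (Dusp4) to 0.944 (Etv4) in IP. The healthy groups differed from each other as well: Spry1 had 5.59 to 7.03 CPM in vehicle IP and 9.70 to 11.9 in wild-type IP, and Spred1 506 to 569 and 389 to 425. Medium spiny neuron markers summed to 3296 to 3827 CPM in R6/2 control input, 8545 to 9397 in vehicle input and 4472 to 8033 in wild-type input. The value of 8033 was wild-type replicate 1, and the next highest was 5416. In IP, astrocyte markers summed to 25670 to 29270 CPM in R6/2 control, 33420 to 42440 in vehicle and 29450 to 40900 in wild-type libraries. Oligodendrocyte markers summed to 2751 to 3871, 5725 to 8640 and 7772 to 11450 CPM in the same order. The IP sums of ependymal and choroid plexus markers overlapped. The part of these markers in the differences of the members was not tested. Spry4 with hM4Di (25.0 to 26.9 CPM in IP) lay above its range in healthy IP (13.4 to 19.2), and Dusp5 with hM4Di (2.83 to 7.97) reached above it (1.77 to 3.10).

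Within groups the members did not vary as 1 set. Over the 24 IP libraries, with each group centred on its mean, Pearson's r of log2 CPM was 0.725 for Dusp1 with Dusp6, 0.651 for Dusp1 with Dusp5 and -0.655 for Spry1 with Spred1, and 0.184 for Etv4 with Etv5. Over the 24 input libraries the highest were Spry4 with Etv5 (0.726) and Dusp1 with Dusp6 (0.692). Libraries of 1 group share their preparation, and single mice such as hM4Di replicate 2 weigh on these values.

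Of 12865 genes compared over the same 24 IP libraries, those most like Dusp1 were the early genes Egr2 (0.869) and Arc (0.838), and those most like Dusp5 were Dusp14 (0.819) and Junb (0.818). Spry1 was most like Slfn5 (0.83) and Bcl3 (0.827), Spry4 like Reep5 (0.826) and Prrc1 (0.817), and Spred1 like Hnmt (0.807) and Fbxl20 (0.78). Reep5 and Prrc1 are annotated on the chromosome of Spry4, and Hnmt on that of Spred1. Dusp4 was most like Gpr3 (0.794) and Csnk1e (0.764), Dusp6 like Pttg1 (0.786) and Rad1 (0.778), and Spry2 like C130071C03Rik (0.771) and Dnttip2 (0.757). Etv4 was most like Rlbp1 (0.716) and Gpt (0.713), and Etv5 like Cox6b2 (0.723) and Zfp592 (0.692). The Etv genes thus had no partner above 0.723, and Dusp1 the closest of the 10. The genes named were picked as the highest of 12865, and how high r would reach among unrelated genes was not tested.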

How the data were processed

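The submitters' processing notes name STAR, HTSeq and the mm10 build; versions and annotation are not given in the sources used here. The deposited read count table and the deposited FPKM table were used; FPKM served for levels between genes. Counts were tested in R 4.3.3 with edgeR 4.0.16 (filterByExpr, minimum count 10; TMM; quasi-likelihood F test; Benjamini-Hochberg over all genes tested), and printed CPM were scaled by TMM over all 48 libraries. IP was compared with input over the 16 libraries of an experiment with condition in the model. DESeq2 1.42.0, limma-voom (limma 3.58.1), other scaling, filters, blocks and left-out replicates were alternatives. The code was tested on simulated data. Members, lists and tests were chosen with earlier results of these data known.

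All 10 members are named. Of the wider list, up to 4 genes per perturbation comparison by smallest p and up to 2 per role called in all 3 experiments between IP and input are named; 2 genes per member are named for likeness. Residuals of IP and input of 1 replicate correlated at 0.381 to 0.622 in the R6/2, 0.228 to 0.5 in the SAPAP3 and 0.0553 to 0.36 in the MPTP experiment, and the titles name 1 mouse for both except in MPTP replicate 2. Drd1 was not found under that symbol among the markers. The labels give separate replicates, and p-values measure the spread between them. The main fits of IP against input left the mouse out, so IP and input of 1 mouse counted as separate libraries. With the mouse as a replicate block the same members were called between IP and input.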

Additional observations from a re-analysis of the deposited data

Results flagged for a closer look

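Among the 120 sets of 4 libraries (10 members in 12 groups), 13 had a highest or lowest library far from the other 3, where chance flags about 1 in 20. hM4Di replicate 2 was the far library in 5 of them: Dusp1 in input (8.69 CPM, others 4.11 to 4.25), Dusp6 in input (62.4, others 21.3 to 23.0) and IP (47.2, others 24.9 to 28.1), Spry2 in IP (68.1, others 62.4 to 62.6) and Spry4 in input (10.4, others 7.81 to 8.11). In the other R6/2 groups Spry4 was low in control IP replicate 4 (9.04, others 13.6 to 14.1), Spred1 in hM4Di input replicate 1 (344, others 358 to 360) and Etv4 in hM4Di input replicate 3 (3.57, others 4.19 to 4.28).

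In the MPTP experiment MPTP input replicate 4 was high for Spred1 (537 CPM, others 453 to 465) and Etv5 (85.9, others 64.8 to 67.1), MPTP IP replicate 3 for Etv4 (8.92, others 7.54 to 7.78) and vehicle input replicate 3 for Spry1 (10.3, others 8.97 to 9.18). In the SAPAP3 experiment Dusp4 was low in wild-type IP replicate 2 (3.39, others 5.22 to 5.36).

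The effect of hM4Di on Spred1 differed between IP and input by -0.23 on the log2 scale (interaction term, without the mouse as a block). With the mouse as a block Spry4 (0.67), Spry1 (0.58) and Dusp5 (0.90) passed as well, as did 17.4% of all genes. The causes were not tested.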

How the results depend on the processing

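No alternative reversed a called direction. Of the recomputed values of called members, 125 kept their call and 29 lost it. The count of members called in MPTP IP was 1 with DESeq2, which called 302 genes there; 289 were called with all 16 libraries in 1 fit, where edgeR on the IP libraries called 0. Between IP and input it was 1 in the MPTP and 0 in the SAPAP3 experiment with a mean CPM of at least 1, and 0 in the SAPAP3 experiment with the control condition only. Leaving out 1 replicate gave 1 to 2 members in the MPTP and 0 to 1 in the SAPAP3 experiment. For hM4Di in IP it gave 2 to 5 members and 892 to 2130 genes in all, and for the interaction 0 to 2 members and 91 to 433 genes. The interaction count was 3 at an adjusted p threshold of 0.1, 3 with DESeq2 and 4 with the mouse as a replicate block, where 1065, 1154 and 2761 of all genes passed, against 492. With hM4Di replicate 2 and control replicate 4 both left out, an alternative chosen after seeing the data, 1 member and 589 genes were called in hM4Di IP. The replicate number as a replicate block across conditions left 3 members and 1601 genes in hM4Di IP; such libraries share a number, not a mouse, and their residuals correlated at -0.000493 to 0.0905. The cause was not tested. Scarce members set the depth limit: Dusp4 and Dusp5 had under 10 CPM in every library.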

Other observations

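Other genes upstream of ERK were called in hM4Di IP libraries of R6/2 mice, in both directions, where 14.7% of all genes were called. Of 15 receptors 3 rose and 3 fell (median log2 fold change -0.07). Of 23 adaptors and GTPase regulators 5 rose and 3 fell, and of 15 ligands 3 rose and 0 fell. Those named were picked after their values were seen. The ligands Hbegf (log2 fold change 0.98 ± 0.189, edgeR adjusted p = 0.014) and Fgf2 (0.54 ± 0.11, 0.0165) rose, as did Met, the receptor of hepatocyte growth factor (1.35 ± 0.283, 0.0179), while the receptors Pdgfra, Pdgfrb and Ntrk3 fell by 0.65, 0.38 and 0.30 on the log2 scale. Gab1, an adaptor of several receptors, rose by 0.49 ± 0.105 (0.0189). Rasa2, which switches Ras off, rose by 0.63 ± 0.13 (0.017). Rasgrp1, an activator of Ras, fell by 0.48 on the log2 scale (adjusted p = 0.0305, edgeR). In the same libraries 7 of 11 medium spiny neuron markers fell and 8 of 8 oligodendrocyte markers rose. The part of these markers in the values above was not tested.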
